A study of Drosophila melanogaster with 5 samples.

Results

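The wing pouch, the part of the *Drosophila* wing disc that forms the wing blade, is laid out by a small set of transcription factors. Histone acetylation at 8 of their genes was examined here: *vg* (FBgn0003975), *sd* (FBgn0003345), *ap* (FBgn0267978), *nub* (FBgn0085424), *Dll* (FBgn0000157), *salm* (FBgn0261648), *salr* (FBgn0000287) and *bi* (FBgn0000179). They were picked by name, and a peak was counted for a gene where the deposited annotation assigned the peak to it. The table held 2626 H3K18ac peaks on 1785 genes, and 9 of these peaks belonged to 5 of the 8 genes. All 9 had a lower H3K18ac level in etomoxir-treated discs than in control discs, with differences of -1.97 to -1.26 on the log2 scale, and none was higher. Most listed peaks had the same direction, since 2194 of the 2626 (83.5%) were lower in etomoxir than in control discs. *bi* had 5 of the peaks, *vg*, *sd*, *ap* and *salm* had 1 each, and *nub*, *Dll* and *salr* were not listed.

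H3K18ac is the acetylation of a lysine in the tail of histone H3, placed by acetyltransferases of the CBP/p300 family (Nej in the fly) and found at active promoters and enhancers. Cut&Run releases the DNA that carries such a mark with a nuclease tethered to an antibody. Of the genes examined, *vg* and *sd* encode the cofactor and the DNA-binding subunit of the complex that gives cells wing identity, and *ap* encodes the LIM-homeodomain factor that specifies the dorsal compartment. *nub* encodes a POU-homeodomain factor of the pouch and *Dll* a homeodomain factor of distal appendage identity. *salm*, *salr* and *bi* are read-outs of the Dpp morphogen gradient across the pouch, the first pair encoding related zinc-finger factors and *bi* a T-box factor.

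All discs came from [w1118] larvae of the third instar, male and female. The etomoxir group was 2 libraries of discs cultured as explants for 2 h with 500 µM etomoxir, a drug that inhibits fatty acid β-oxidation (FABO) by blocking the import of long-chain fatty acids into mitochondria. The control group was 3 libraries, made up of 2 drug-free explant cultures of 2 h and 1 sample that was dissected and profiled with no culture step. The table gave the authors' mean of each group as the log2 of the normalized read count per peak, and no value per library. The spread between libraries is therefore unknown here, and no test was run. The table holds no read totals. By the study's reporting form the second cultured control had many more unique reads than the other libraries, while its total reads lay within their range. The effect of the drug and that of culture cannot be told apart for the directly dissected library, which was averaged into the control. Every listed peak had passed the authors' FDR limit of 0.05. Whole discs were profiled in bulk, so a smaller signal in every cell and a signal lost from some cells cannot be told apart.

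To show what DNA lay under the decreases, 300 bases at the peak centre are printed for the peak with the largest decrease of *sd*, *salm* and *bi*, for a peak inside *nub*, and for the intergenic peak with the largest decrease between *salr* and *salm*. The coordinates are those of dm6, and the letters are the plus strand of the RefSeq assembly, 5′ to 3′. Capitals mark matches on either strand to 4 motifs, GGAATG (the TEAD family, to which Sd belongs), GTGGGAA (Su(H), the effector of Notch), ATGCAAAT (the octamer of POU factors) and GAGAG (GAGA factor), with overlapping matches counted separately.
sd, promoter, chrX:15811702-15812001: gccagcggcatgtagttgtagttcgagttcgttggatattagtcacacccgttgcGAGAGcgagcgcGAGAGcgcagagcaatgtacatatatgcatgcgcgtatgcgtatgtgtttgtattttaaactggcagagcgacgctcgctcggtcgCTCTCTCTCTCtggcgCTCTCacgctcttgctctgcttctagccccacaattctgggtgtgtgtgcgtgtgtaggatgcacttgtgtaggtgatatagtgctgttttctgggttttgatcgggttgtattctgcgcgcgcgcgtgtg
salm, promoter, chr2L:11445830-11446129: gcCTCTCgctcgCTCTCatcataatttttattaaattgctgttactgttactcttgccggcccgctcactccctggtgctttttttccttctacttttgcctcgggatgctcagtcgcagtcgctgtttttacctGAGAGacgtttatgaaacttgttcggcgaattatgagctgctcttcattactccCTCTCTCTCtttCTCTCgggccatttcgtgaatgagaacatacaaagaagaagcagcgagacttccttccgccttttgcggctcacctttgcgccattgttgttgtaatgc
bi, intron, chrX:4449471-4449770: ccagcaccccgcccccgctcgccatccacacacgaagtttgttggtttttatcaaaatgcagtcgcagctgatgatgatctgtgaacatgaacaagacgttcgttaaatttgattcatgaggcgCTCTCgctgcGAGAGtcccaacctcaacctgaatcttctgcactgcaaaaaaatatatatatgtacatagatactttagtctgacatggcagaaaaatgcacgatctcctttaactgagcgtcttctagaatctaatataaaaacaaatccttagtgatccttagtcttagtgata
nub, intron, chr2L:12601770-12602069: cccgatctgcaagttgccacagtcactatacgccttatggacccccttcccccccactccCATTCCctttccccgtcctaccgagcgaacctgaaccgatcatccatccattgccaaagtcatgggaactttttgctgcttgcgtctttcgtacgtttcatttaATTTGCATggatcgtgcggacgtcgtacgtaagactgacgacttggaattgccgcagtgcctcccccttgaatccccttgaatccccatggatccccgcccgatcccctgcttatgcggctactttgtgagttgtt
salr to salm, intergenic, chr2L:11399065-11399364: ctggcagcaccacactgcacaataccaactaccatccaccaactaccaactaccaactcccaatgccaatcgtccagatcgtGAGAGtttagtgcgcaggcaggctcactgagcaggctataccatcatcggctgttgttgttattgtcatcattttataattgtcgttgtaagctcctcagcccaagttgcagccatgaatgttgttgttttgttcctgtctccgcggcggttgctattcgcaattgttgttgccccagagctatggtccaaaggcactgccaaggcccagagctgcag
GAGAG matched 7 times in the *sd* window and 7 times in the *salm* window, against 2 matches in the *bi* window, 1 in the window between *salr* and *salm* and 0 in the *nub* window. The centres of the *vg* and *ap* peaks, whose letters are not printed, held 1 match each, so the promoter windows did not all have many. Among the 300-base centres of all 2626 listed peaks, 41.6% held at least 1 such match and 2.86% held 7 or more. The limit of 7 was set at the count seen in the *sd* and *salm* windows, where some of the matches overlap. The *nub* window held 1 match to GGAATG and 1 to ATGCAAAT, a pair found in 0.533% of all listed windows, while 15.1% held GGAATG and 3.35% held ATGCAAAT. The pair was taken from this window and no share was computed for other pairs. The 0.533% therefore does not say whether the *nub* window stands out. None of the 5 printed windows held GTGGGAA, which was found in 4.04% of all windows. The G and C content of the windows was 53.0% for *sd*, 47.0% for *salm*, 41.7% for *bi*, 53.7% for *nub* and 50.3% for the intergenic window, beside a median of 45.3% over all listed peaks. None of the windows overlapped an annotated exon, and a match to a motif describes the letters only.

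The wing selector pair lost H3K18ac at 1 peak each. In *vg*, the peak covered 1306 bases of chromosome 2R (12888257 to 12889562, dm6) in intron 2 of 7, 3625 bases past a transcription start. Its mean normalized read count was 40.5 in etomoxir discs and 115 in control discs, so that 35.4% of the control level was left (5.34 and 6.84 on the log2 scale, a difference of -1.50). The second intron of *vg* is known as the site of the boundary enhancer, which responds to Notch, but whether the peak covers that element was not examined. This was the only peak of the 8 genes that also passed an FDR under 0.001. In *sd*, a peak of 915 bases on chromosome X (15811394 to 15812308) lay over one of the 7 annotated transcription starts and overlapped an *sd* exon. It fell to a mean of 50.2 in etomoxir discs, against 135 in control discs (5.65 and 7.08, a difference of -1.43), the highest level of the 9 peaks in both groups. At *sd* 37.1% of the control level was left, beside 35.4% at *vg*, and the *sd* peak did not pass an FDR under 0.01.

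**Figure D1:**
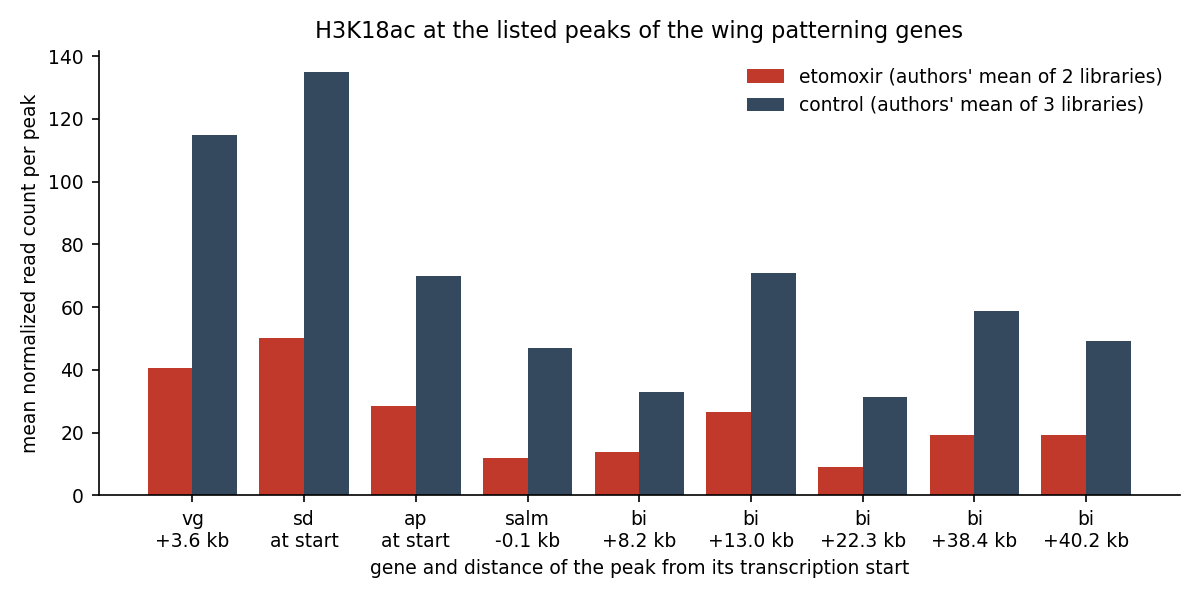
Mean normalized H3K18ac read count per peak for the 9 listed peaks of *vg*, *sd*, *ap*, *salm* and *bi*, with the authors' mean of 2 etomoxir libraries in red and of 3 control libraries in dark blue. The horizontal axis names the gene and the distance of the peak from the nearest transcription start of that gene. Every etomoxir bar stands below its control bar, with 9.06 to 50.2 reads in etomoxir discs and 31.3 to 135 in control discs. No error bars are drawn because the table holds no value per library.

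The dorsal selector *ap* had its listed peak at the promoter. The peak covered 748 bases of chromosome 2R (5726923 to 5727670), over the transcription start on the minus strand. Its mean was 28.4 reads in etomoxir discs and 70.0 in control discs, which left 40.6% of the control level (4.83 and 6.13, a difference of -1.30). It passed an FDR under 0.01.

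Among the read-outs of Dpp, *salm* showed the largest decrease of the 9 peaks. Its peak of 611 bases on chromosome 2L (11445674 to 11446284) lay 60 bases upstream of the transcription start, just outside the gene. The mean was 12.0 reads in etomoxir discs and 46.9 in control discs, so that 25.5% of the control level was left (3.58 and 5.55, a difference of -1.97). Only 9.07% of the 2194 lower peaks in the table fell by more. The *salm* peak passed an FDR under 0.01.

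*bi* carried its 5 peaks within introns, 8161 to 40229 bases past the nearest of its 3 annotated transcription starts, and none at a promoter. They spread over 32.6 kb of a gene of 72.8 kb, with gaps of 905 to 15677 bases between neighbours, so merging peaks less than 500 bases apart left all 5 separate. In intron 2, the peak nearest to the start (chromosome X, 4435296 to 4435581) had 13.8 reads in etomoxir discs and 33.1 in control discs, a difference of -1.26. The next (4440129 to 4441003) had 26.5 reads in etomoxir discs and 71.0 in control discs, a difference of -1.42. The third peak of this intron (4449400 to 4449840) showed the largest decrease in *bi*, with 9.06 reads in etomoxir discs and 31.3 in control discs, a difference of -1.79. It kept 28.9% of its control level, while the peak nearest to the start kept 41.8%. In intron 4, the peak at 4465518 to 4466458 had 19.3 reads in etomoxir discs and 58.9 in control discs, a difference of -1.61. The last peak (4467364 to 4467877) also had 19.3 reads in etomoxir discs, against 49.2 in control discs, a difference of -1.35. All 5 lie within lncRNA:CR32773 as well, a non-coding RNA annotated across this stretch, so their assignment to *bi* rests on the nearest start. Of the 1469 genes with a lower peak, 36 (2.45%) had 5 or more, while 1043 (71.0%) had exactly 1. The 5 peaks of *bi* share a gene and are not independent observations.

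Peak width differed between 286 and 1306 bases, so levels of different genes are comparable only per kilobase. In etomoxir discs the density was highest at *sd*, with 54.9 reads per kb, followed by the *bi* peak nearest to the start with 48.4 and *ap* with 38.0. The *vg* peak stood at 31.0 reads per kb, the median of the 9, and *salm* was lowest with 19.6. In control discs *sd* was again the most dense, with 148 reads per kb, and the *bi* peak nearest to the start again came next with 116. *ap* had 93.6 reads per kb in control discs, *vg* 87.7 and *salm* 76.7, and the lowest was a *bi* peak in intron 4 with 62.6. Without values per library it cannot be said which neighbours in these orders differ.

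The 9 peaks were set beside all lower peaks of the table. Their median difference was -1.43, and that of all 2194 lower peaks was -1.19, with a range of -3.90 to -0.39. Each of the 9 fell by more than the median of all lower peaks, and 31.2% of lower peaks fell by more than the median of the 9. The genes examined also had weaker signal. Their median level was 19.3 reads in etomoxir discs and 58.9 in control discs, beside 40.2 reads in etomoxir discs and 97.0 in control discs over all lower peaks, and 7 of the 9 lay below the control median of the lower peaks. Per kilobase the medians were 31.0 reads in etomoxir discs and 87.7 in control discs for the 9 peaks, beside 45.9 in etomoxir discs and 107 in control discs for all lower peaks. Over the listed lower peaks a weaker control level went with a larger decrease, but this comparison cannot say whether it does over all peaks. Only peaks that passed the authors' FDR limit were listed, and the control level is itself part of the difference. The 352 lower peaks with a control level below the median of the 9 had a median difference of -1.39 and none smaller in size than -0.86, while the other lower peaks had a median of -1.13 and went up to -0.39. The median of -1.43 for the wing patterning genes was thus close to that of other weak listed peaks. The part of the signal level in it, and that of the FDR limit, was not tested.

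**Figure D2:**
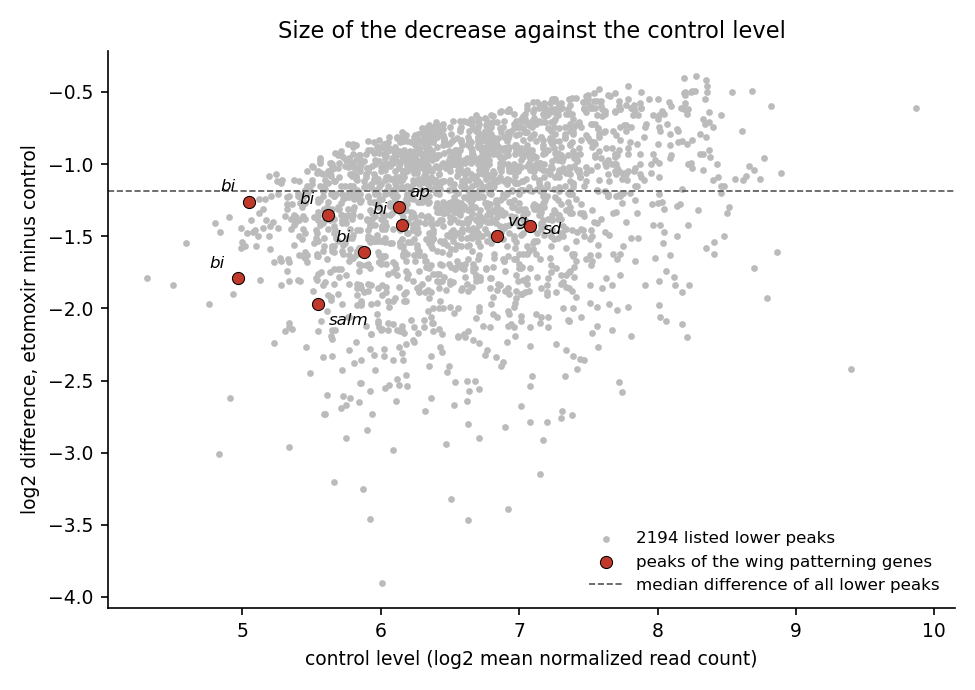
Each point is a listed lower peak, with the control level (log2 of the mean normalized read count) on the horizontal axis and the difference of etomoxir minus control (log2) on the vertical axis. The 9 peaks of the wing patterning genes are in red and all lie below the dashed line, the median of -1.19 over all 2194 lower peaks. Their median control level was 5.88, beside 6.60 over all lower peaks.

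The 9 peaks lay more often in introns than listed peaks did in general. By the deposited annotation 3 of them (33.3%) were at promoters, those of *sd*, *ap* and *salm*, and 6 (66.7%) in introns, those of *vg* and *bi*. Of all lower peaks, 62.8% were at promoters and 22.1% in introns. Since 5 of the 6 intronic peaks belong to *bi*, this share describes mainly 1 gene. Among the 9, the median difference was -1.43 at promoters and -1.46 in introns. Over all lower peaks it was -1.12 at promoters and -1.27 in introns.

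Of the 13986 annotated protein-coding genes, 7.89% had a listed lower peak and 2.01% a listed higher peak. Lower peaks were listed for 5 of the 8 patterning genes and higher peaks for 0 of the 8. The 8 genes were not drawn at random, and they are long, with a median span of 21.1 kb beside 2.16 kb over the protein-coding genes. The part of gene length in the counts was not tested. The background holds all annotated protein-coding genes, including any with no H3K18ac peak in the disc. Genes with unchanged peaks were not listed, so a share over genes that carry the mark is not given here.

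The assignment to the nearest transcription start left out listed peaks within the loci of the genes themselves. Within 10 kb of the 8 genes, 8 more lower peaks were listed under the names of other genes, with a median difference of -1.43, and 1 higher peak. With them, each of the 8 genes had a listed lower peak in or near it, including *nub*, *Dll* and *salr*, and 1 of the 8, *vg*, had a higher one. Of the 13986 protein-coding genes, 26.6% had a lower peak in or within 10 kb of them and 8.14% a higher peak. A window around a long gene covers more sequence, and the part of gene length in the count of 8 was not tested. A peak near a gene need not act on it.

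*nub* contained a lower peak of 378 bases in intron 2 of 5 (chromosome 2L, 12601731 to 12602108), whose sequence is printed above with its octamer and TEAD matches. It lies 14106 bases from the nearest *nub* start and was assigned to *Ref2*, whose start was 9368 bases away. Its mean was 16.0 reads in etomoxir discs and 41.4 in control discs, a difference of -1.37. A second lower peak lay 8609 bases upstream of *nub* and was assigned to lncRNA:CR44596, with 53.1 reads in etomoxir discs and 93.7 in control discs (-0.82).

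*Dll* had no listed peak at its start or within the gene, and its nearest one began 463 bases past its end. This peak (chromosome 2R, 24836130 to 24836736) was assigned to *CG3650*, whose start was 12258 bases away, and had 15.7 reads in etomoxir discs and 43.7 in control discs (-1.48). Another peak of the same assignment, 8938 bases past the end of *Dll*, fell further, with 9.32 reads in etomoxir discs and 41.1 in control discs, a difference of -2.14. The third, 7283 bases upstream and assigned to *CG42851*, had 40.5 reads in etomoxir discs and 88.0 in control discs (-1.12).

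Around *vg* the listed peaks went both ways. A peak 4670 bases past its end, assigned to lncRNA:CR46336, had 14.8 reads in etomoxir discs and 63.1 in control discs, a difference of -2.09. On the other side, 4469 bases upstream of *vg*, the promoter of *Nmda1*, which encodes a subunit of the NMDA glutamate receptor, was higher. Its peak had 237 reads in etomoxir discs and 53.4 in control discs, a difference of 2.15. This peak also overlaps the annotated span of *AspRS*, so its assignment to *Nmda1* rests on the nearest start. *sd* contained a further lower peak over the start of lncRNA:CR44384, a non-coding RNA within the gene, with 38.1 reads in etomoxir discs and 85.0 in control discs (-1.16). No other gene's peak was listed within 10 kb of *ap*, *bi* or *salm*.

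**Figure D3:**
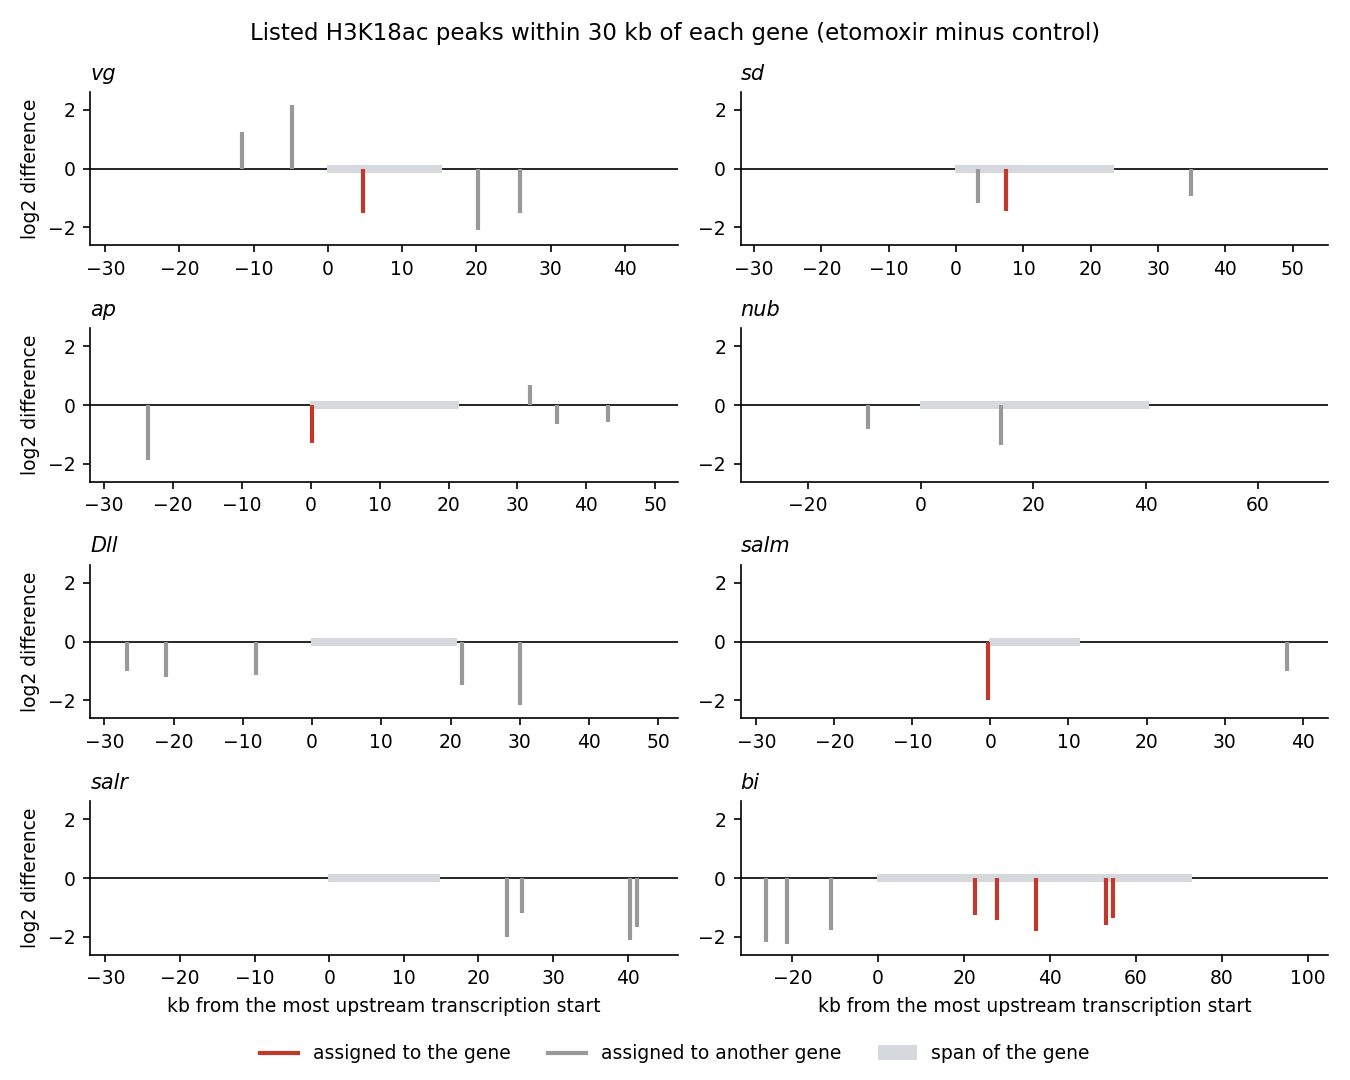
Listed H3K18ac peaks in and within 30 kb of each gene, drawn to scale in kb from its most upstream transcription start and in the direction of transcription. Bars give the log2 difference of etomoxir minus control, in red for peaks assigned to the gene and in grey for those assigned to another gene, and the pale band is the span of the gene. *nub*, *Dll* and *salr* have grey bars only, and the bars above 0 are 2 beside *vg* and 1 beside *ap*.

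*salr* and *salm* are neighbours on chromosome 2L that are transcribed towards each other, with 60.7 kb between their ends. This interval was looked at after its values were seen. It held 5 listed peaks, all lower and all assigned to lncRNA:CR43681. Of these, 4 passed an FDR under 0.01, and the share of all listed peaks that did so is not given here. Their differences ran over -2.10 to -1.01, with a median of -1.65. The peak nearest to *salr*, 8647 bases past its end, had 23.6 reads in etomoxir discs and 94.4 in control discs, so that 25.0% of the control level was left. The largest decrease was at 11398947 to 11399481, whose centre is printed above, with 14.7 reads in etomoxir discs and 63.1 in control discs, or 23.3% of the control level. A peak close by (11399890 to 11400411) had 20.5 reads in etomoxir discs and 64.4 in control discs. The smallest decrease was at the peak nearest to *salm*, which still lay 26252 bases from its end, with 40.2 reads in etomoxir discs and 81.0 in control discs. The *salm* promoter itself, with 25.5% of the control level left, was thus close to the most reduced peaks of the interval, while no listed peak was assigned to *salr*.

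**Figure D4:**
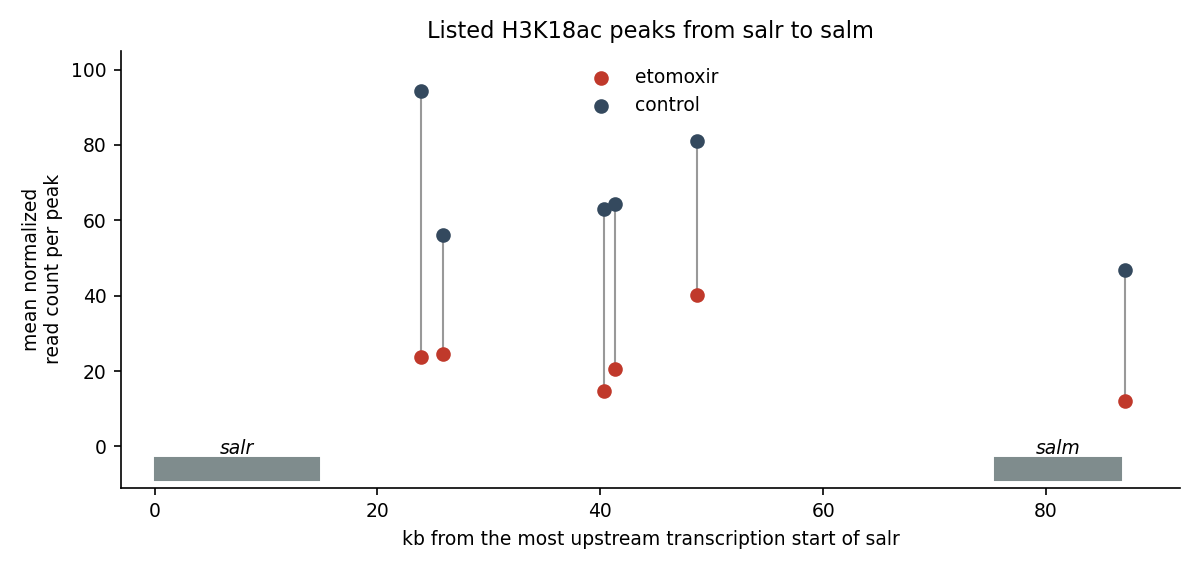
Mean normalized read count per peak in etomoxir (red) and control (dark blue) discs for the listed peaks between *salr* and *salm* and at the *salm* promoter, against the distance in kb from the most upstream start of *salr*. The grey boxes are the gene spans. The 5 intergenic peaks had 14.7 to 40.2 reads in etomoxir discs and 56.1 to 94.4 in control discs.

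The same comparison was made for 34 other genes of wing patterning, in 5 lists arranged by their relation to the genes above. Lower peaks were listed for 15 of the 34, higher peaks for 0, and 19 had no listed peak. The background over all protein-coding genes, with or without the mark in the disc, was 7.89% lower and 2.01% higher. As for the 8 genes, the part of gene length in the count of 15 was not tested. The 33 lower peaks had a median difference of -1.39. The lists were drawn up with earlier results of these data known.

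Of the 8 inputs and partners of *vg* and *sd*, lower peaks were listed for *N*, the Notch receptor, *dpp*, the BMP ligand of the gradient, and *Tgi*, a repressor that binds Sd, and not for *Su(H)*, *wg*, *arm*, *Mad* or *yki*. The largest decrease of this list was at *dpp*, with a log2 level of 4.27 in etomoxir discs and 6.37 in control discs (-2.10). Of the 7 partners and targets of *ap*, lower peaks were listed for *Bx*, whose product competes with Ap for its cofactor, *Ser*, a Notch ligand, and *caps*, a cell-surface protein. *Ser* had 4 lower peaks, and the largest decrease was at a peak with a log2 level of 6.03 in etomoxir discs and 8.01 in control discs (-1.98). All 9 peaks of the *ap* list fell by more than the median of all lower peaks, and their own median was -1.66.

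Of the 4 genes beside *nub*, *nab* and *dve* had 1 lower peak each, the larger decrease being at *dve*, a homeobox gene, with 4.64 in etomoxir discs and 5.85 in control discs (-1.21). Of the 8 appendage genes beside *Dll*, only *al* and *dan* were listed, and the homeobox gene *al* had a log2 level of 3.55 in etomoxir discs and 5.23 in control discs (-1.68). The list beside *salm*, *salr* and *bi* had lower peaks at 5 of its 7 genes. These were *brk*, the repressor of Dpp targets, *Dad*, an inhibitor of Dpp signalling, and the vein genes *kni*, *knrl* and *ab*, while *bs* and *rho* were not listed. The largest decrease was at *knrl*, with a log2 level of 3.08 in etomoxir discs and 5.75 in control discs (-2.67), and *brk* came next with 3.48 in etomoxir discs and 6.03 in control discs (-2.55). Both were larger than any decrease at the 8 selector and patterning genes.

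**Figure D5:**
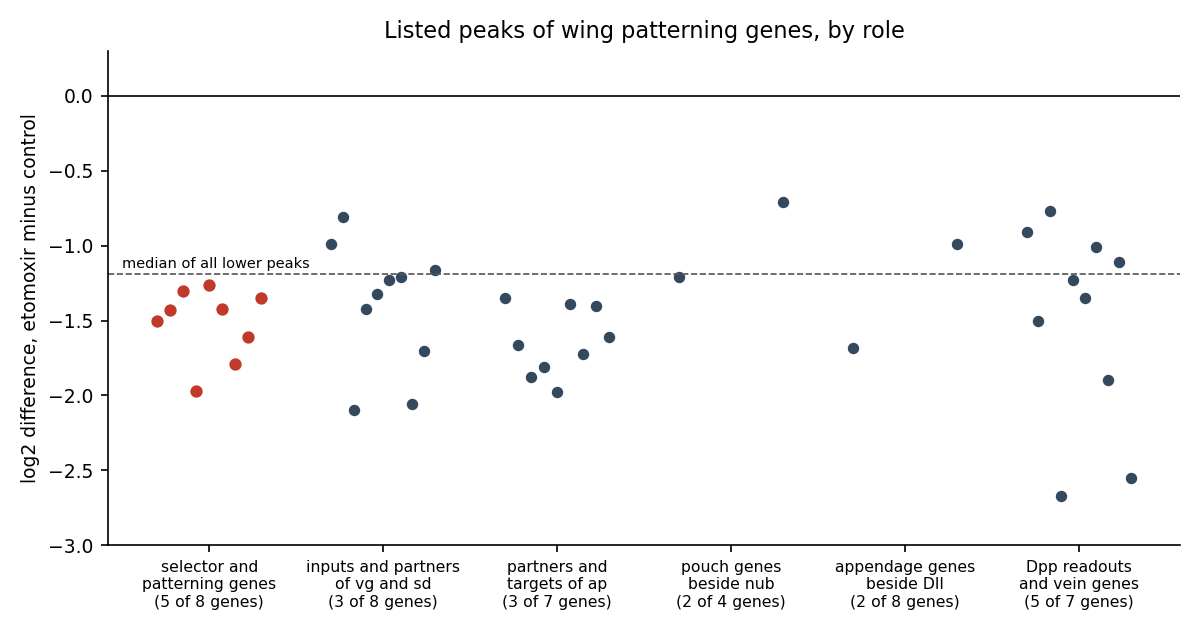
Log2 difference of etomoxir minus control at every listed peak of the 8 selector and patterning genes (red) and of the 5 lists of related genes (dark blue), 1 point per peak. The labels give how many genes of each list had a listed lower peak, among them 5 of 8 for the genes examined, 5 of 7 for the list beside *salm*, *salr* and *bi*, and 2 of 8 for the appendage genes beside *Dll*. All points lie below 0, and the dashed line is the median of -1.19 over all lower peaks.

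Wing disc preparations also hold myoblasts, trachea and haemocytes. A lower peak was listed for 1 of 5 myoblast genes (*Mef2*, 5.26 in etomoxir discs and 6.43 in control discs on the log2 scale), for 1 of 2 tracheal genes (*trh*, 5.87 in etomoxir discs and 6.87 in control discs) and for 0 of 4 haemocyte genes, with no higher peak in any list. Over all protein-coding genes, 7.89% had a listed lower peak and 2.01% a higher one, and the lists are too short to set apart from that. Since only changed peaks were listed, the tissue could not be checked against its markers, and the part of these cells in the values was not tested.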

How the data were processed

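H3K18ac Cut&Run of wing discs was deposited as 1 table of 2626 peaks for 5 libraries. The authors trimmed reads with Trim Galore 0.6.3, aligned them to dm6 with Bowtie2 2.4.2, called peaks with MACS2 2.1.1.20160309.6, compared groups with DiffBind 2.10.0 and annotated peaks with ChIPseeker 1.18.0. The deposited values are the authors' log2 group means of normalized read counts. They equal a mean weighted by 3 control and 2 etomoxir libraries within 0.02 at 100% of peaks. Yeast DNA was spiked in, and its use for scaling is not given in the sources used here. Depth per library is not in the table. The study's reporting form lists many more unique reads for the second cultured control than for the others, with total reads within their range.

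The authors' fold change and p-value columns were not used, and their FDR (an adjusted p-value) served only as a limit. Differences are etomoxir minus control group means, on the log2 scale, and read counts are those means taken off the log scale. Deposited starts count from 0 and were moved to 1-based positions, which gave back 100% of the deposited distances. Gene spans, exons and starts came from Ensembl release 115 (BDGP 6.54), where 98.2% of gene identifiers were found, and sequences from RefSeq. Counting, distances and motif matches were tested on simulated data. All 8 genes were named with all their peaks, with the gene of largest decrease per list and the genes of peaks within 10 kb. The genes and lists were chosen with earlier results of these data known. Alternatives were FDR limits of 0.01 and 0.001, a minimum difference, merging, gene assignment and promoter distance. Python 3.11.15, numpy 2.4.6, pandas 2.3.3 and matplotlib 3.10.9 were used.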

Additional observations from a re-analysis of the deposited data

How the results depend on the processing

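With an FDR under 0.01, 6 of the 9 lower peaks at 4 of the 5 genes were left (*ap*, *bi*, *salm* and *vg*), and with an FDR under 0.001 only 1 peak at 1 gene, *vg*. The share of all listed peaks that passed these limits is not given here. These counts therefore do not say whether the peaks of the 8 genes stand out. Asking for a difference of at least 1 on the log2 scale, or merging peaks less than 500 bases apart, left 9 peaks. Counting any peak that overlaps a gene gave 10 peaks at 5 genes, with *nub* in and *salm* out, and counting any within 10 kb gave 17 lower peaks at all 8 genes, beside 1 higher peak. A lower peak within 10 kb was found for 26.6% of all protein-coding genes. Alternatives chosen after seeing the data gave 31 lower and 3 higher peaks within 30 kb, and 4 lower peaks without *bi*. The share of all protein-coding genes with a peak within 30 kb was not computed. The median difference of -1.43 lay between -1.56 and -1.40 in the alternatives run for it, some of which rest on 1 or 2 peaks. The 3 promoter peaks stayed 3 with promoters of 1000 or 2000 bases. The genes missing from the list may have unchanged peaks or none, since peaks past the FDR limit of 0.05 were not analysed here. No paired analysis was possible because the table holds group means only, and leaving out each library was not run for the same reason.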

Other observations

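Further from the genes, within 30 kb, a window chosen after seeing the data, 22 lower peaks and 3 higher ones carried the names of other genes. No share over all genes was computed for this window, so the counts are a description only. Upstream of *bi*, 3 lower peaks were listed, each with a larger decrease than at least 4 of the 5 within it. They lay 25615 bases upstream, where the peak assigned to FBgn0029707 had 18.6 reads in etomoxir discs and 83.3 in control discs (-2.16), and 20826 and 10650 bases upstream, both assigned to lncRNA:CR32773, with differences of -2.25 and -1.75. Upstream of *ap*, 23062 bases from its start, a peak assigned to FBgn0022288 had 26.9 reads in etomoxir discs and 99.0 in control discs (-1.88), while the lower peaks at *scaf* past the other end of *ap* had differences of -0.56 and -0.65. The higher peaks beside *Nmda1* were at asRNA:CR43469, 10740 bases upstream of *vg*, with 347 reads in etomoxir discs and 146 in control discs (1.25), and at FBgn0259979, 10090 bases past *ap*, with 154 reads in etomoxir discs and 97.0 in control discs (0.67). Whether any of these peaks acts on *bi*, *ap* or *vg* was not tested.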
